A study of Mus musculus with 6 samples.

Results

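The 10 nuclear genes described here encode proteins that transcribe mitochondrial DNA or that bind, process and stabilise its RNA: the FASTK family (Fastk, Fastkd1, Fastkd2, Fastkd3, Fastkd5 and Tbrg4), the LRPPRC and SLIRP pair, the mitochondrial RNA polymerase gene Polrmt and the mitochondrial DNA packaging factor gene Tfam. They are 10 of the 29626 genes in the count table and were taken by gene name. The set was chosen by a measured value, the lower count of Fastkd2 in KANSL1-deficient than in control cells, so the values of these 10 genes in that comparison are given as a description, with no test. RNA was sequenced from double-positive (DP) thymocytes sorted from the thymus of mice aged 8 weeks, with 3 Kansl1fl/fl CD4-Cre mice, called KANSL1-deficient here, and 3 littermate Kansl1fl/fl mice without Cre as controls (genotype tag WT). The labels number the mice within each group. Kansl1fl/fl is a floxed Kansl1 gene carried by both groups, and CD4-Cre expresses Cre recombinase from Cd4 regulatory sequences, so deletion begins only in thymocytes that have switched on Cd4. The KANSL1 protein belongs to the NSL complex, which holds the histone acetyltransferase KAT8. Cre was absent from the controls, so what Cre does by itself and what loss of Kansl1 does cannot be told apart.

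Mitochondrial DNA is transcribed from both strands into long precursors by POLRMT, which needs TFAM and a further initiation factor. Transfer RNAs are then cut out of the precursors, which frees the messenger and ribosomal RNAs, and the FASTK family proteins, which share a C-terminal RAP domain, act on particular transcripts after that. FASTKD2 binds the large ribosomal RNA mt-Rnr2 and is needed for assembly of the large mitochondrial ribosomal subunit, while LRPPRC with SLIRP keeps most mitochondrial messenger RNAs stable and polyadenylated.

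The stretch of 250 bases before the annotated start is shown for 4 of the genes, because the sequence before Fastkd2 differs in composition from that before most of the other genes. The sequences are from RefSeq's GRCm38.p6 annotation, which held a start for all 10 genes and is not the GRCm39 build of the counts. They are written 5′ to 3′ on the strand of the gene. Capitals mark matches on either strand to any of 9 short motifs, which are CCGGAAG (ETS factors such as GABP), the NRF1 motif, GGGCGG (SP1), AAGATGG (YY1), ACTACAA (ZNF143), CCAAT (NF-Y), CACGTG (E-box), TGACGT (CRE) and TATAAA (known as the TATA box).
Fastkd2, GRCm38.p6 chr1:63730375-63730624, plus strand: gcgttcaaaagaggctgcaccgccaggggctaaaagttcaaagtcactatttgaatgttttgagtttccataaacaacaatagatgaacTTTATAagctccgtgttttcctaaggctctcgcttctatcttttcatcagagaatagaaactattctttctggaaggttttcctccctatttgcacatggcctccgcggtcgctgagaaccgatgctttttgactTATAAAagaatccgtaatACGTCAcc
Fastkd1, GRCm38.p6 chr2:69712607-69712856, minus strand: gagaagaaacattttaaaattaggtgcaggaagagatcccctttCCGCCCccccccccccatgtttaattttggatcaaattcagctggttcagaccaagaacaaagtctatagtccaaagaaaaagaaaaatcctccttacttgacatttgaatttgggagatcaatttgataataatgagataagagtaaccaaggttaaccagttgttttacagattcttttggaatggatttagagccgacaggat
Tbrg4, GRCm38.p6 chr11:6626068-6626317, minus strand: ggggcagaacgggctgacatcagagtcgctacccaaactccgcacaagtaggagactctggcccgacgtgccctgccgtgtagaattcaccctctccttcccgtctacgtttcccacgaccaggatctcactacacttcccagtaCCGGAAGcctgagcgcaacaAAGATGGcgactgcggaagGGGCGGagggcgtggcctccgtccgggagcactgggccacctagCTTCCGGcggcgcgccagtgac
Tfam, GRCm38.p6 chr10:71238045-71238294, minus strand: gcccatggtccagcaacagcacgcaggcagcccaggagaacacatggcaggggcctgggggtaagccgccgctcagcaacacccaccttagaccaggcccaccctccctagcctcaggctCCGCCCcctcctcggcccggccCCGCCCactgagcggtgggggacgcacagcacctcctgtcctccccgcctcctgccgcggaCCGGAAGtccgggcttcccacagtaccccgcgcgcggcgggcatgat

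The window before Fastkd2 was 41.6% G or C, with 10 CG dinucleotides, against a median of 52.4% and 6 CG dinucleotides over 32851 windows of the same length. The window before Fastkd1 was 38.0% G or C, those before Fastkd5 and Polrmt were 44.4% and 46.8%, and those before the other 6 genes lay between 63.6% and 72.0%. The ETS motif was found before 6 of the 10 genes (Fastk, Fastkd5, Tbrg4, Slirp, Polrmt and Tfam), against 6.91% of all windows, and not before Fastkd2, Fastkd1, Fastkd3 or Lrpprc. The SP1 motif was found before 6 of them (Fastk, Fastkd1, Fastkd3, Tbrg4, Lrpprc and Tfam), against 32.7% of all windows. The NRF1 motif was found only before Fastkd3, which held 2 matches, against 3.74% of all windows. Fastkd2 held TATAAA at 161 and 26 bases before its start and TGACGT at 8 bases before it, and it shared TATAAA with Polrmt and TGACGT with Fastk and Lrpprc. Those motifs were found in 12.4% and 6.47% of all windows. The YY1, ZNF143 and NF-Y motifs were found before 2, 1 and 2 of the 10 genes, against 4.49%, 2.81% and 33.8% of all windows, and the E-box before 0 of the 10, against 6.02%. A match is a description of the letters in the window. The motifs were chosen with the values of the genes known, and a motif absent from a window says nothing of the factor.

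Libraries held 20603137 to 22459830 counts in KANSL1-deficient cells and 19361968 to 21975201 in control cells. Kansl1, the targeted gene, averaged 167 ± 21.3 CPM in KANSL1-deficient cells and 211 ± 20.8 CPM in control cells (SD, n = 3 each), with a log2 fold change of -0.33 ± 0.14 (SE) and an adjusted p of 0.171 (edgeR), short of the threshold of 0.05. Counts over the whole gene include reads outside the floxed part, so they check the labels only weakly. CPM is a count divided by library size, scaled between libraries by the TMM method of edgeR. The DP label was checked against 10 markers, whose summed level was 16117 to 17879 CPM in KANSL1-deficient cells and 13621 to 14184 CPM in control cells. Rag2 and Dntt of that list were past the threshold and higher, and all 10 log2 fold changes were positive. Of the CD4 single-positive markers, 3 of 4 tested had a positive log2 fold change. Their defining gene Zbtb7b was read 1 time in KANSL1-deficient and 0 times in control libraries. CD8 single-positive markers summed to 2408 to 2984 CPM in KANSL1-deficient cells and 2442 to 2638 CPM in control cells, nearly all of it Cd8b1, which DP cells also express. The other 3 tested markers had groups that stood apart and were lower in KANSL1-deficient cells, as did 14.0% of all tested genes. The log2 fold changes of the 3 were -2.54 for Cst7, -2.27 for Itgae and -0.69 for Runx3. Cst7 and Itgae had few reads, with 22 and 24 over the KANSL1-deficient libraries and 139 and 127 over the control libraries. By edgeR 0 of the 4 tested markers were past the threshold and 3 had an unadjusted p under 0.05. DESeq2 called 3 lower, against 6.16% of all tested genes. The part of these markers in the results below was not tested.

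Fastkd2 had 7.77, 9.05 and 4.15 CPM in KANSL1-deficient replicates 1 to 3, and 21.9, 31.7 and 35.5 CPM in control replicates 1 to 3. Every KANSL1-deficient library lay below every control library. Fastkd2 (ENSMUSG00000025962, GRCm39 chromosome 1, 63769773 to 63793814, plus strand) averaged 6.99 ± 2.54 CPM in KANSL1-deficient cells and 29.7 ± 7.03 CPM in control cells (SD, n = 3 each). KANSL1-deficient cells thus held 0.236 of the control level, a log2 fold change of -2.09 ± 0.30 (SE), and it ranked 138 from the lowest among the 15353 genes that passed the filter on low counts. The deposited reads behind these values were 158, 192 and 83 in KANSL1-deficient libraries and 453, 721 and 808 in control libraries. Cells were sorted in bulk, so fewer cells of a kind that express Fastkd2 and less Fastkd2 RNA per cell cannot be told apart. With any single library left out the log2 fold change lay between -2.31 and -1.82. The authors' deposited table gives Fastkd2 a log2 fold change of -2.09 and marks it, alone among the 10 genes, as significant.

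**Figure D1:**
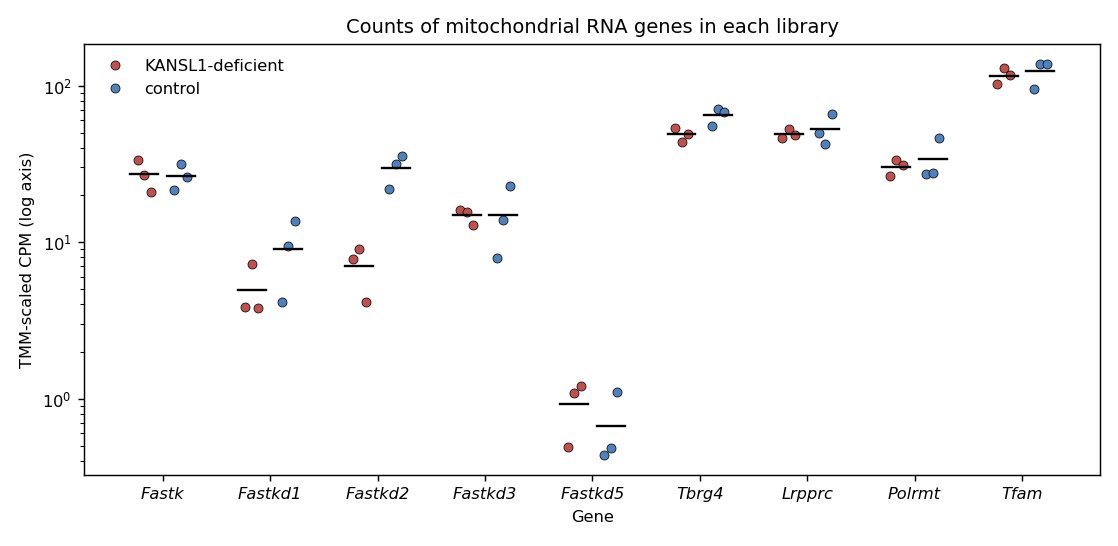
TMM-scaled CPM (log axis) of 9 of the 10 genes in each library, with KANSL1-deficient libraries in red at the left of each pair and control libraries in blue at the right; points are libraries in replicate order and black bars are means of 3. The groups stand apart for Fastkd2 and, by a small gap, for Tbrg4, and overlap for the other 7 genes; Slirp, with 2 reads in all, is not drawn.

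Of the 10 genes, 9 passed the filter on low counts and entered the fit across all genes. In that fit 1 of the 9, Fastkd2, was past the threshold, an adjusted p under 0.05 by the quasi-likelihood test of edgeR, against 6.76% of all tested genes in either direction and 2.91% lower. Since Fastkd2 is the gene for which the others were picked, nothing is read from that count. The log2 fold changes were negative in 7 of the 9 genes and positive in 2, and their median was -0.10, against -0.02 over all tested genes. Values of the KANSL1-deficient libraries all lay below those of the control libraries for 2 of the 9 genes, against 14.0% of all tested genes.

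No other FASTK family gene was past the threshold with TMM scaling. Fastkd1, whose protein lowers the level of the ND3 transcript in human cells, had 3.84, 7.26 and 3.80 CPM in KANSL1-deficient cells and 4.16, 9.46 and 13.6 CPM in control cells. The groups overlapped, with control replicate 1 close to the KANSL1-deficient libraries, and the log2 fold change was -0.87 ± 0.43 (SE). Tbrg4, also called Fastkd4, stabilises several mitochondrial messenger RNAs and had 54.0, 43.8 and 49.0 CPM in KANSL1-deficient cells, against 54.9, 71.3 and 68.3 CPM in control cells. The groups stood apart, although the highest KANSL1-deficient library lay close under control replicate 1, and the log2 fold change was -0.41 ± 0.16 (SE), not past the threshold with TMM scaling and past it with library totals (-0.56).

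Fastk, the founding gene of the family, whose mitochondrial isoform is needed for the mt-Nd6 transcript, had 33.5, 26.8 and 21.0 CPM in KANSL1-deficient cells and 21.4, 31.6 and 26.0 CPM in control cells. The groups overlapped throughout, and the log2 fold change was 0.04 ± 0.22 (SE), or -0.11 with library totals. In the deposited coordinates Fastk overlaps Slc4a2 by 2511 bases on the opposite strand, and Slc4a2 averaged 30.2 CPM over the 6 libraries. Whether these genes share reads was not tested. Fastkd3, whose protein acts on mt-Co1 messenger RNA, had 16.04, 15.7 and 12.8 CPM in KANSL1-deficient cells and 7.88, 13.9 and 22.8 CPM in control cells. The means were nearly equal, the control libraries were spread more widely than the KANSL1-deficient libraries and enclosed them, and the log2 fold change was -0.00 ± 0.33 (SE).

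Fastkd5, needed in human cells for the maturation of COX1 messenger RNA, was scarcely counted, with 10, 23 and 24 reads in KANSL1-deficient libraries and 9, 11 and 25 in control libraries. All 16188 bases of the gene lie within Ubox5 on the same strand, and the annotated starts of the pair are 11 bases apart. Reads in shared exons cannot be told apart between them, and no source used here gives how such reads were counted, so no level of Fastkd5 is read from its counts. Ubox5 itself had a log2 fold change of -0.39 ± 0.20 (SE, adjusted p = 0.267 by edgeR) and was not past the threshold.

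Within the family, per length, Fastkd2 made up 4.82%, 6.39% and 3.18% of the summed FPKM of the 6 genes in KANSL1-deficient replicates 1 to 3, and 14.4%, 14.9% and 16.1% in control replicates 1 to 3. FPKM is a read count divided by gene length and by library size, and a share within a library does not depend on scaling between libraries. The means were 4.79 ± 1.61% in KANSL1-deficient cells and 15.1 ± 0.883% in control cells (SD, n = 3 each). The control libraries were close together in this share even though their Fastkd2 level differed, control replicate 1 being the lowest for the other family genes too. The summed FPKM of the other 5 genes was 24.3, 21.3 and 20.9 in KANSL1-deficient libraries and 23.6, 32.02 and 33.2 in control libraries. Tbrg4 was the main family transcript in every library, at 49.1% to 59.5% in KANSL1-deficient cells and 49.2% to 57.5% in control cells. The Fastk share was 21.6% to 27.9% in KANSL1-deficient cells and 15.8% to 19.8% in control cells, although its CPM overlapped. All shares are parts of a sum that includes Fastkd2, so a lower Fastkd2 level raises the shares of the other genes. Nothing is therefore read from the Fastk share.

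**Figure D2:**
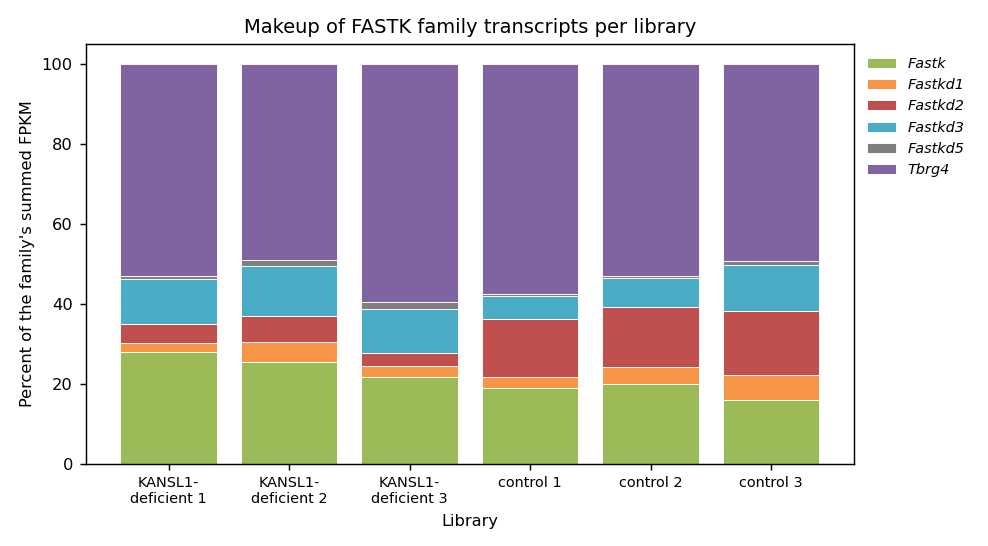
Share of each FASTK family gene in the family's summed FPKM (percent, stacked bars) in each library, with KANSL1-deficient libraries at the left and control libraries at the right. The red Fastkd2 segment covers 3.18% to 6.39% in KANSL1-deficient libraries and 14.4% to 16.1% in control libraries, while Tbrg4 takes about as much of each bar in both groups. The Fastk segment covers 21.6% to 27.9% in KANSL1-deficient libraries and 15.8% to 19.8% in control libraries, where a smaller Fastkd2 segment enlarges the other segments of a bar.

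Among the genes outside the FASTK family, no tested gene had groups that stood apart. Lrpprc, the RNA-binding partner that stabilises mitochondrial messenger RNAs, had 46.5, 52.7 and 48.2 CPM in KANSL1-deficient cells and 50.1, 42.2 and 65.8 CPM in control cells. The groups overlapped, and the log2 fold change was -0.10 ± 0.18 (SE). Slirp, its small partner, was read 1 time in 1 KANSL1-deficient library and 1 time in 1 control library, and did not pass the filter. In the deposited coordinates Slirp (chromosome 12, 87490666 to 87498976, plus strand) overlaps Snw1 by 3132 bases and Alkbh1 by 122 bases, both on the opposite strand and read at 244 and 77.9 CPM on average over the 6 libraries. A count this low says nothing firm of the Slirp level where overlapping genes may share its reads, and that share was not tested.

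Polrmt, the mitochondrial RNA polymerase, had 26.6, 33.5 and 31.0 CPM in KANSL1-deficient cells and 27.4, 27.9 and 46.4 CPM in control cells. The higher control mean came from control replicate 3, and the log2 fold change was -0.16 ± 0.23 (SE). Tfam, which packages mitochondrial DNA and opens its promoters, had 102, 130 and 116 CPM in KANSL1-deficient cells and 95.8, 138 and 137 CPM in control cells. The groups overlapped, with control replicate 1 the lowest of all 6 libraries, and the log2 fold change was -0.09 ± 0.17 (SE). Among control libraries, replicate 1 was the lowest for 8 of the 9 genes that passed the filter.

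Per length, Tfam was the most abundant of the 10 transcripts, at 24.8 FPKM on average in KANSL1-deficient cells and 29.3 FPKM in control cells, followed by Tbrg4 at 12.5 and 18.4 FPKM in the same groups. Polrmt, Fastk and Lrpprc came next, between 5.48 and 6.15 FPKM in KANSL1-deficient cells and between 6.32 and 7.61 FPKM in control cells, and their libraries overlapped in both groups. Fastkd2 had 1.12 FPKM in KANSL1-deficient cells, where it ranked seventh, below Fastkd3 in every library and overlapping Fastkd1, and 5.32 FPKM in control cells, where it ranked sixth and overlapped Fastk and Fastkd3. Fastkd3 averaged 2.70 FPKM in KANSL1-deficient cells and 2.99 FPKM in control cells, and Fastkd1 averaged 0.804 and 1.63 FPKM in those groups.

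The 5 protein-coding genes whose log2 CPM was closest to that of Fastkd2 over the 6 libraries, among 8812 candidates, were Cyp4f16, Fchsd1, Zfp677, Urb1 and Atp23. Likeness was the Euclidean distance of log2 CPM centred per gene, which was 0.602 to 0.869 for these genes and 1.91 for Fastkd1, the nearest of the other family members, which ranked 422 among the candidates. Urb1, a ribosome biogenesis factor, had 8.43 ± 1.17 CPM in KANSL1-deficient cells and 29.7 ± 2.33 CPM in control cells (SD, n = 3 each). These genes were selected for following a gene that differs between the groups, so their own difference is no added result.

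Gene starts next to those of the 10 genes were examined because neighbouring genes can share a promoter region. The start of Mdh1b lies 296 bases from that of Fastkd2, head to head on the opposite strand, and Mdh1b was read at 0.0167 CPM on average over the 6 libraries, too little to test. Of 20 nearest starts on either side, 9 belonged to genes that passed the filter, and 1 of these, Tmub1, was past the threshold and lower, against 2.91% of all tested genes, so nothing is read from a count of 1. Tmub1, which lies beside Fastk on the same strand with its start 2567 bases away, encodes a ubiquitin-like membrane protein and averaged 47.1 ± 3.96 CPM in KANSL1-deficient cells and 87.0 ± 11.4 CPM in control cells (SD, n = 3 each), with a log2 fold change of -0.88 ± 0.15 (SE, adjusted p = 0.00811 by edgeR). Without KANSL1-deficient replicate 2 that call was lost (edgeR, adjusted p = 0.0521). Mtrr, whose start lies 85 bases from that of Fastkd3 head to head, had a log2 fold change of -0.18 ± 0.27 (SE, adjusted p = 0.776 by edgeR) and was not past the threshold. The long non-coding RNA gene D030016M11Rik starts 81 bases from Tbrg4, head to head. Its log2 fold change was -0.78 ± 0.43 (SE, adjusted p = 0.307 by edgeR), not past the threshold. Its groups stood apart and were lower in KANSL1-deficient cells, at 2.60 CPM on average over the 6 libraries.

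The RNA that these proteins make and handle was examined next, since the 13 messenger RNAs and 2 ribosomal RNAs of mitochondrial DNA are in the count table. Of the 13 messenger RNAs, 10 passed the filter, and 1 of them, mt-Nd1, fell, against 6.76% of all tested genes called in either direction. The median log2 fold change of the 10 was -0.26, against -0.02 over all tested genes, and 9 of the 10 were negative. The library totals scaling moved the median of all tested genes to -0.17 and that of the 10 messenger RNAs to -0.41.

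The transcript of mt-Nd1, a subunit of respiratory complex I encoded next to mt-Rnr2, averaged 872 ± 65.6 CPM in KANSL1-deficient cells and 1303 ± 125 CPM in control cells (SD, n = 3 each). Its log2 fold change was -0.58 ± 0.12 (SE, adjusted p = 0.0155 by edgeR), and its groups stood apart. The call was lost, with an adjusted p between 0.0527 and 0.0629, with KANSL1-deficient replicate 1, 2 or 3 or control replicate 2 left out. For mt-Nd2 the log2 fold change was -0.45 ± 0.15 (SE, adjusted p = 0.104 by edgeR), for mt-Nd4 -0.32 ± 0.12 (SE, adjusted p = 0.143 by edgeR) and for mt-Cytb -0.33 ± 0.13 (SE, adjusted p = 0.144 by edgeR). Groups stood apart for these 3 as well, as they did in the lower direction for 14.0% of all tested genes. None of the 3 was past the threshold. The transcript of mt-Co1, a subunit of cytochrome c oxidase from the same strand, had a log2 fold change of 0.08 ± 0.13 (SE, adjusted p = 0.786 by edgeR), or -0.07 with library totals. The light-strand transcript mt-Nd6 had a log2 fold change of -0.07 ± 0.18 (SE, adjusted p = 0.881 by edgeR).

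**Figure D3:**
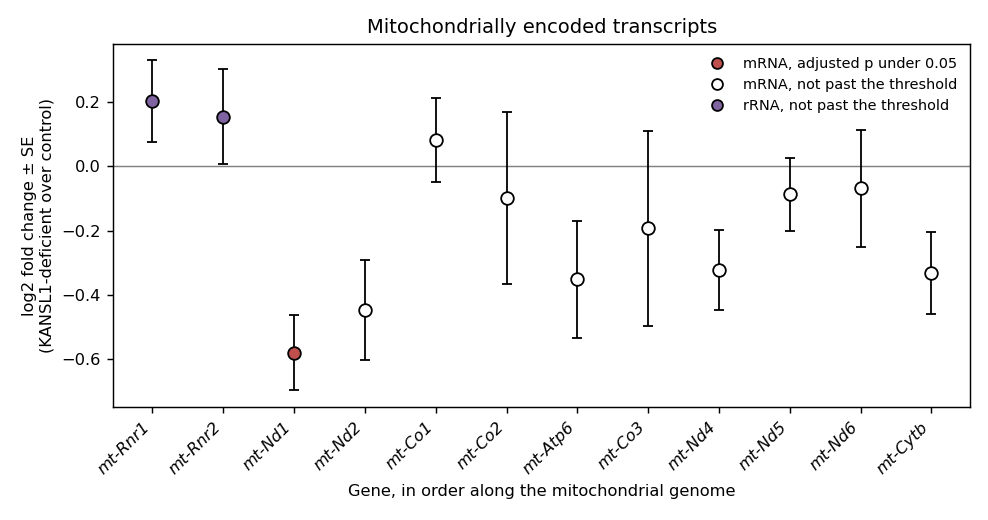
Log2 fold change (KANSL1-deficient over control) with its SE for the 12 mitochondrially encoded transcripts that passed the filter, in their order along the mitochondrial genome. The red point, mt-Nd1 at -0.58, is past the threshold; the rRNA points lie at 0.20 and 0.15, and the remaining mRNA points lie between -0.45 and 0.08.

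The large ribosomal RNA mt-Rnr2, to which FASTKD2 binds, took 1.52%, 1.48% and 1.91% of all counts in KANSL1-deficient replicates 1 to 3 and 1.75%, 1.85% and 1.27% in control replicates 1 to 3. The groups overlapped, and the log2 fold change was 0.15 ± 0.15 (SE, adjusted p = 0.605 by edgeR). The small ribosomal RNA mt-Rnr1 had a log2 fold change of 0.20 ± 0.13 (SE, adjusted p = 0.390 by edgeR). The libraries were made from RNA selected for poly(A), which holds only part of the ribosomal RNA, so these shares are not its cellular amount. The log2 ratio of mt-Rnr2 to mt-Rnr1 counts was 4.79, 4.91 and 4.84 in KANSL1-deficient cells and 5.03, 5.01 and 4.59 in control cells. The difference of the means was -0.03, smaller than the SD of 0.25 among control libraries, and an exact two-sided permutation test over 20 assignments gave p = 1, where 0.1 is the smallest p that 3 against 3 libraries allow.

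The 13 messenger RNAs together took 0.995%, 0.998% and 0.844% of all counts in KANSL1-deficient replicates 1 to 3 and 1.07%, 1.29% and 1.10% in control replicates 1 to 3. On these library totals every KANSL1-deficient library lay below every control library, but with TMM scaling the groups overlapped, at 8703 to 10695.5 summed CPM in KANSL1-deficient cells and 10053 to 12459 in control cells. The means of the shares were 0.946 ± 0.0882% in KANSL1-deficient cells and 1.15 ± 0.118% in control cells (SD, n = 3 each), and the exact two-sided permutation test gave p = 0.1, the smallest possible (0.4 after Benjamini-Hochberg adjustment over 4 such values). Against TMM effective library sizes the difference of the means was -0.0987 percentage points in place of -0.207. The largest parts of the summed messenger RNA were mt-Co1, mt-Cytb, mt-Nd1 and mt-Nd4, at 5449, 2735, 1087 and 553 CPM on average over the 6 libraries. Within the share, mt-Co1 alone took 0.566%, 0.558% and 0.468% of all counts in KANSL1-deficient replicates 1 to 3. It took 0.500%, 0.628% and 0.539% in control replicates 1 to 3, and the groups overlapped. The log2 ratio of ribosomal to messenger RNA was 0.66, 0.61 and 1.23 in KANSL1-deficient cells and 0.75, 0.57 and 0.27 in control cells, which overlap (exact two-sided permutation p = 0.4, adjusted p = 0.8). The log2 ratio of mt-Nd6 to the 12 other messenger RNAs, the transcript for which FASTK is needed, was -7.94, -7.68 and -7.29 in KANSL1-deficient cells and -7.69, -7.59 and -7.87 in control cells, which also overlap (exact two-sided permutation p = 0.8, adjusted p = 1).

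Nuclear copies of several mitochondrial genes were also counted. A row of pseudogenes on chromosome 1, from 24650616 to 24655278, carries the annotation of mitochondrial genes, and these pseudogenes were singled out after their counts had been seen. Gm10925, annotated as the ATP synthase subunit of mt-Atp6, was read 10635 times over the 6 libraries, against 6823 times for mt-Atp6 itself. Gm28661 was read 756 times against 1065 for mt-Co2, and Gm28437 was read 1275 times against 862 for mt-Co3, while mt-Co1 was read 696586 times against 5471 for Gm29216. The genes mt-Nd3, mt-Nd4l and mt-Atp8, each with 45 reads or fewer over all 6 libraries, did not pass the filter. Levels of mt-Co2, mt-Co3, mt-Atp6, mt-Nd3 and mt-Nd4l are therefore uncertain, and those of mt-Nd4, with 70959 reads against 1199 for its copy, are less so. No copy of mt-Atp8 was examined, and its few reads leave its level uncertain too. The uncertain genes are part of the summed messenger RNA share and of the ratios to messenger RNA. The median log2 fold change of the tested messenger RNAs includes mt-Co2, mt-Co3 and mt-Atp6.

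Other nuclear genes of mitochondrial gene expression were taken from 6 lists by role, with 97 distinct genes besides the 10 and 95 that passed the filter. Of the 95 genes, 5 fell and 5 rose by edgeR at an adjusted p under 0.05, against 2.91% and 3.85% of all tested genes, and their median log2 fold change was -0.30 against -0.02. Each count is small. Leaving out KANSL1-deficient replicate 1, 2 or 3 gave 0, 1 or 2 genes past the threshold in either direction. Leaving out control replicate 2 or 3 gave 1 or 5, and only the removal of control replicate 1 did not lower the number. The number of all genes past the threshold also fell with any single library left out. With library totals 15 fell and 3 rose, against 6.25% and 2.39% of all tested genes, so that scaling moved the calls of all genes toward lower as well. DESeq2 called 14 lower and 6 higher, against 6.16% and 6.98% of all tested genes.

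Among 28 genes for cleavage and modification of mitochondrial RNA, 3 fell and 1 rose, against 2.91% lower and 3.85% higher of all tested genes. The median was -0.32 on the log2 scale, against -0.02 over all tested genes. Trmt1, a tRNA methyltransferase, had 25.9 ± 1.27 CPM in KANSL1-deficient cells and 45.6 ± 3.56 CPM in control cells (SD, n = 3 each), with a log2 fold change of -0.81 ± 0.16 (SE, adjusted p = 0.0153 by edgeR). Mettl17, a factor of the small mitochondrial ribosomal subunit, had a log2 fold change of -0.95 ± 0.22 (SE, adjusted p = 0.0241 by edgeR), and Gtpbp3, a tRNA modification enzyme, of -0.77 ± 0.20 (SE, adjusted p = 0.0372 by edgeR). Mettl8, which methylates mitochondrial tRNA, rose, with 109 ± 14.1 CPM in KANSL1-deficient cells and 69.7 ± 3.77 CPM in control cells and a log2 fold change of 0.65 ± 0.14 (SE, adjusted p = 0.0209 by edgeR).

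Among 13 tested genes of RNA stability and decay, with a median of -0.31, 1 fell and none rose, against 2.91% lower and 3.85% higher of all tested genes. The gene that fell was Pde12, which removes poly(A) tails in mitochondria, with 42.2 ± 4.86 CPM in KANSL1-deficient cells and 67.4 ± 3.41 CPM in control cells (SD, n = 3 each) and a log2 fold change of -0.68 ± 0.15 (SE, adjusted p = 0.0238 by edgeR). Among 21 assembly factors of the mitochondrial ribosome, the process in which FASTKD2 acts, 1 fell and none rose, against those same shares. Nothing is read from either count of 1. The assembly factors had a median of -0.38 and 19 negative log2 fold changes. Over all 15353 tested genes 7959 log2 fold changes were negative. The factor that fell was Eral1, a chaperone of the small ribosomal RNA, with 34.6 ± 5.85 CPM in KANSL1-deficient cells and 56.0 ± 7.07 CPM in control cells and a log2 fold change of -0.69 ± 0.18 (SE, adjusted p = 0.0403 by edgeR). DESeq2 called 6 of these factors lower, against 6.16% of all tested genes. Tfb1m, Mterf3 and Mterf4 are in this list and among the transcription factors.

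Of 9 other mitochondrial transcription factors, which start, extend or end transcription beside POLRMT and TFAM, 0 were past the threshold with edgeR or DESeq2, 0 had an unadjusted p under 0.05, and the median was -0.18. Of 15 genes for replication of mitochondrial DNA, 1 rose and none fell, with a median of -0.16. It was Dna2, a nuclease and helicase that also works in the nucleus, with 18.2 ± 4.19 CPM in KANSL1-deficient cells and 7.85 ± 2.33 CPM in control cells and a log2 fold change of 1.22 ± 0.28 (SE, adjusted p = 0.0265 by edgeR). The regulators of mitochondrial biogenesis had a positive median, 0.17, or 0.02 with library totals. Against 3.85% higher and 2.91% lower over all tested genes, 3 of the 12 rose and none fell. They were Myc (0.87 ± 0.21), the GABP subunit gene Gabpb1 (0.56 ± 0.14) and Sp1 (0.66 ± 0.16), given as log2 fold changes with their SE, with edgeR adjusted p of 0.0290, 0.0321 and 0.0328 in that order. Of these 3 genes, only Myc was past the threshold with library totals, 0 were with FPKM plus 1 and 0 with KANSL1-deficient replicate 1, 2 or 3 left out. With control replicate 1, 2 or 3 left out, 1 was past it each time (Sp1, Myc and Gabpb1 in that order). Gabpb1 averaged 120 ± 8.49 CPM in KANSL1-deficient cells and 81.7 ± 7.94 CPM in control cells (SD, n = 3 each).

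**Figure D4:**
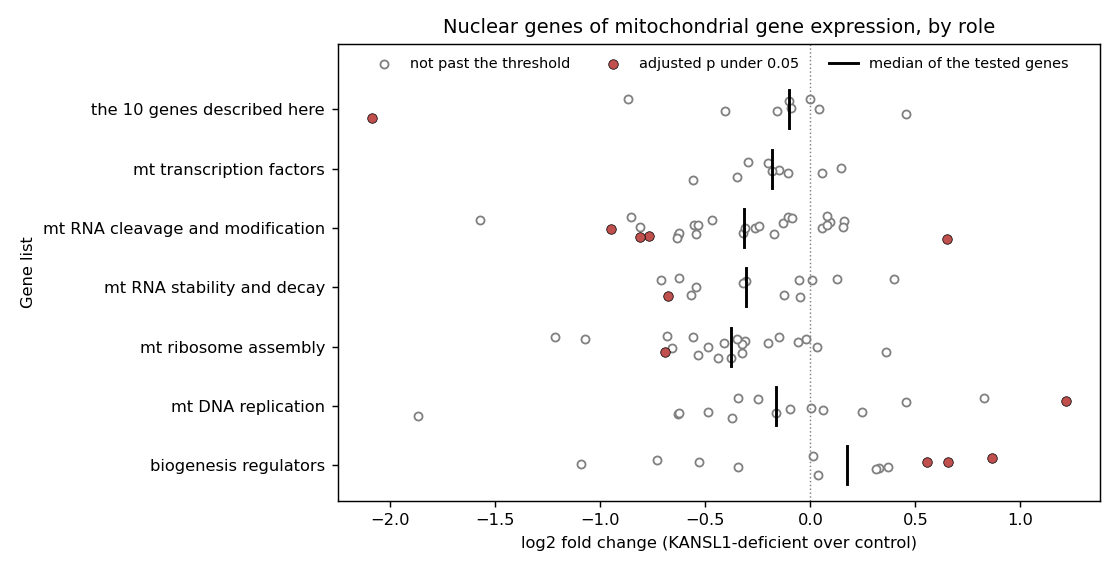
Log2 fold change (KANSL1-deficient over control) of each tested gene in the 10 genes described here, of which 9 were tested, and in 6 lists of other nuclear genes; filled points are past the threshold and black bars are list medians. Fastkd2 at -2.09 lies left of every other point, and the list medians run between -0.38 for ribosome assembly and 0.17 for biogenesis regulators.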

How the data were processed

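Poly(A)-selected RNA of sorted DP thymocytes was sequenced from 3 KANSL1-deficient and 3 control mice. STAR, featureCounts, DESeq2 and the build GRCm39 are named in the submitters' processing notes, without versions or settings, and no source used here gives whether counting used strand. The authors deposited 1 table of raw counts per gene with their own size-factor-scaled mean signal, fold change, log2 fold change, p-value and adjusted p-value, and 1 table of FPKM values.

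Counts were fitted here with edgeR 4.0.16 in R 4.3.3 (quasi-likelihood test, robust, TMM scaling, filterByExpr with a minimum count of 10 and total of 15), all 6 libraries in 1 fit with group as the only term, with Benjamini-Hochberg adjustment over 15353 genes at 0.05. The SE is the size of the log2 fold change divided by the square root of F. The method was tested on simulated data. Alternatives used limma 3.58.1, DESeq2 1.42.0, other scalings, filters and FPKM with a pseudocount of 1 or 0.1. Within groups, no pair of libraries was a duplicate, with a chi-square per gene of 21.6 or more. Pairs between the groups were not checked. The labels do not say that the mice came from separate litters, so p-values measure the spread between these mice.

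The 10 genes, the gene lists and the markers were chosen with earlier results of these data known. Genes named from the lists are those past the threshold, and genes like Fastkd2 are the 5 protein-coding genes nearest in log2 CPM centred per gene. Values of some marker genes are not reported here.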

Additional observations from a re-analysis of the deposited data

How the results depend on the processing

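The log2 fold change of Fastkd2, the value for which the genes were picked, ran between -2.31 and -1.41 over the alternatives and is given as a description. The number of all genes past the threshold was 1038, and became 1729 with no filter, 2018 with DESeq2, and 283 to 811 with 1 library left out (283, 305 and 525 without KANSL1-deficient replicates 1, 2 and 3, and 339 without control replicate 2). Of the 10 genes, 2 were past it with library totals, the second being Tbrg4. Of the list genes, 10 became 18 with library totals, 16 with no filter, 20 with DESeq2 and 0 to 11 with 1 library left out, and with FPKM plus 1 the 9 called were all lower. Of the mitochondrially encoded messenger RNAs, 1 became 4 with library totals or with the abundance trend removed, 3 with log2 FPKM plus 1, plus 0.1 or quantile normalised, 2 with no filter, a 5 CPM minimum or DESeq2, and 0 to 2 with 1 library left out (0 with KANSL1-deficient replicate 1, 2 or 3 or control replicate 2 left out, and 2 without control replicate 3). The difference in messenger RNA share was -0.584 percentage points from FPKM, -0.0987 with TMM effective library sizes and -0.247 to -0.140 with 1 library left out. The differences in log2 ratio ran from -0.17 to 0.05 for mt-Rnr2 to mt-Rnr1, from 0.11 to 0.41 for ribosomal to messenger RNA and from -0.09 to 0.23 for mt-Nd6 to the others with 1 library left out. Replicate numbers were not used to pair the mice. Deviations of same-numbered libraries from their group means correlated at -0.05, -0.02 and -0.10. With 3 libraries per group these values cannot show whether same-numbered mice were paired. With the replicate block 406 genes, 1 list gene and 0 mitochondrially encoded messenger RNAs were past the threshold (mt-Nd1 adjusted p = 0.0589, edgeR). The cause of these changes was not tested. Fastkd5 and Slirp had 102 and 2 reads over all libraries, and whether depth or reads shared with overlapping genes limits them was not tested.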
